A study of Mus musculus with 8 samples.

Results

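The enzymes that write and erase methyl groups on histones and DNA, together with the histone deacetylases, were examined in cultured mouse brain pericytes exposed to TGF-β1. The members were the autosomal protein-coding genes whose symbols place them among the histone lysine methyltransferases (Kmt2, Kmt5, Ezh, Ehmt, Suv39h and Setd genes), the lysine demethylases (Kdm), the histone deacetylases (Hdac), the sirtuins (Sirt), the DNA methyltransferases (Dnmt) and the TET dioxygenases. This gave 59 of the 54532 gene identifiers in the count files, and 6 further genes with such symbols on chromosome X or Y were left out (Hdac6, Hdac8, Kdm5c, Kdm5d, Kdm6a and Suv39h1). The rule itself used symbols and chromosomes and no measured value, but the members were chosen with earlier results of these data known. Bulk RNA sequencing covered 8 primary cultures from wild-type mouse brain, of which 4 (numbered 1 to 4) received vehicle and 4 (numbered 5 to 8) received TGF-β1 at 5 μg/mL, all for 48 h. TGF-β1 is a secreted cytokine that signals through SMAD proteins, and the study asked how it alters gene expression in these perivascular cells. All cultures came from papain-digested brain and had been passaged in medium with serum and growth factors, so they model pericytes outside the vessel wall. The study's methods describe isolates given both treatments, but the labels do not say which cultures share an isolate. The groups were therefore compared as unpaired, and the p-values measure the spread between these cultures only.

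Methyl groups on histone lysines are placed by SET-domain enzymes and removed by the flavin-dependent LSD enzymes or the Jumonji enzymes, which need iron, oxygen and 2-oxoglutarate. Methylation of lysine 4 on histone H3 (H3K4) marks promoters and enhancers in use, whereas methylation of H3K9 and H3K27 goes with silent chromatin. DNA methyltransferases place 5-methylcytosine, TET enzymes oxidise it, and deacetylases remove acetyl groups from histones and other proteins, mostly inside corepressor complexes. Pericytes wrap capillaries and regulate their tone and permeability, and these enzymes are general components of chromatin in such cells as in others.

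The libraries held between 45255235 and 47651397 counts each, and the totals did not separate the groups (exact two-sided permutation test, p = 0.857, where 4 against 4 allows no p below 0.0286). Levels are given as CPM, the counts of a gene per 1000000 counts of the library total scaled by TMM factors, a scale on which 3 counts equalled 0.0631 to 0.0658 CPM. Among the pericyte markers, Pdgfrb averaged 202 CPM in vehicle cultures and 291 CPM with TGF-β1, Cspg4 82.9 and 169 CPM, and Rgs5 8.62 and 2.13 CPM. Of the 7 pericyte markers tested, 2 rose (Pdgfrb and Cspg4), 2 fell (Rgs5 and Anpep, the latter from 40.5 to 30.1 CPM) and 3 were not called. Of these, Notch3 had 88.5 and 85.9 CPM, and Des and Higd1b were at no more than 36 and 25 counts per culture, while Kcnj8, Abcc9 and Vtn stayed under 10 counts in every culture. The summed level of the 10 endothelial markers was 476 to 489 CPM with vehicle and 479 to 503 CPM with TGF-β1, most of it Cdh5, and 2 of the 7 tested were called higher (Flt1 and Vwf) and 1 lower (Tek). Flt1 averaged 81.7 and 99.2 CPM and Kdr 17.9 and 18.6 CPM, while Pecam1 was at 1.11 CPM in both groups and Cldn5 and Tie1 did not exceed 10 counts in any culture. The summed fibroblast markers, almost all Fn1, Col1a1 and Col1a2, spanned 9347 to 9614 CPM with vehicle and 12860 to 13620 CPM with TGF-β1. Of the other fibroblast markers, Pdgfra was not called (62.5 and 63.0 CPM), Dcn fell (52.1 to 46.7 CPM) and Lum was at 2 to 6 counts. Summed astrocyte markers, mostly Gja1, spanned 251 to 263 and 227 to 239 CPM (2 of 7 tested called higher, 2 lower). Those of microglia and macrophages spanned 104 to 109 and 103 to 105 CPM (nearly all Tmem119, with C1qb at 0). Of these, 1 of 7 tested, Csf1r, was called higher and none lower. Those of oligodendrocytes spanned 24.2 to 25.3 and 18.0 to 21.7 CPM. Of 4 tested, 1 was called higher (Mbp) and 2 lower (Cnp and Sox10). Of 12 known TGF-β response genes, 10 rose, and Id1 and Tgfbi fell (edgeR, described next). In bulk RNA a shift in the cells present and a shift in RNA per cell cannot be told apart, and the part of either in the results that follow was not tested.

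TGF-β1 altered the RNA level of 26 of the 58 enzyme genes that had enough counts to test, 11 upward and 15 downward, and most of these shifts were small. The test was edgeR's quasi-likelihood test with Benjamini-Hochberg adjustment over 22544 genes, and a gene was called at an adjusted p under 0.05. The enzyme genes were called at 44.8%, beside 41.3% of all genes tested. Among genes with a mean of at least 10 CPM, 24 of 47 enzyme genes were called (51.1%) beside 60.9% of all such genes. Neither share sets the enzymes apart. By direction, 20.9% of all genes tested were called higher and 20.3% lower. The 4 vehicle and 4 TGF-β1 values did not overlap for 27 enzyme genes (46.6%), beside 37.9% of all genes. That share was not computed for genes at 10 CPM or more, where 47 of the 58 enzyme genes lie, so it is not matched for level. The median log2 fold change over the 58 enzyme genes was -0.03, beside -0.01 over all genes tested. Without vehicle culture 1 the medians were -0.0069 and -0.0038. With library totals as the only scaling the calls were 10 upward and 21 downward.

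Only Tet1 and Kdm7a were called with an absolute log2 fold change of at least 0.5, which is 3.45% of the enzyme genes tested, beside 14% of all genes and 10% of those at 10 CPM or more. Of the 9 called members with a log2 change of at least 0.25 in size, 8 fell and 1, Kdm5b, rose. Of all genes tested, 13.6% were called lower and 11.1% higher by at least that much. A further 11 called members lay between 0.1 and 0.25, and 6 lay under 0.1. The median size of the log2 change was 0.19 among the called enzyme genes, beside 0.32 among all called genes and 0.21 among called genes at 10 CPM or more. The remaining 32 members did not pass the threshold, and 4 of these (Kmt2b, Ehmt2, Kmt5b and Kdm5a) still had groups that did not overlap. Dnmt3l, which encodes a catalytically inactive partner of the DNA methyltransferases, had 0 to 5 counts per culture and was not tested.

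**Figure D1:**
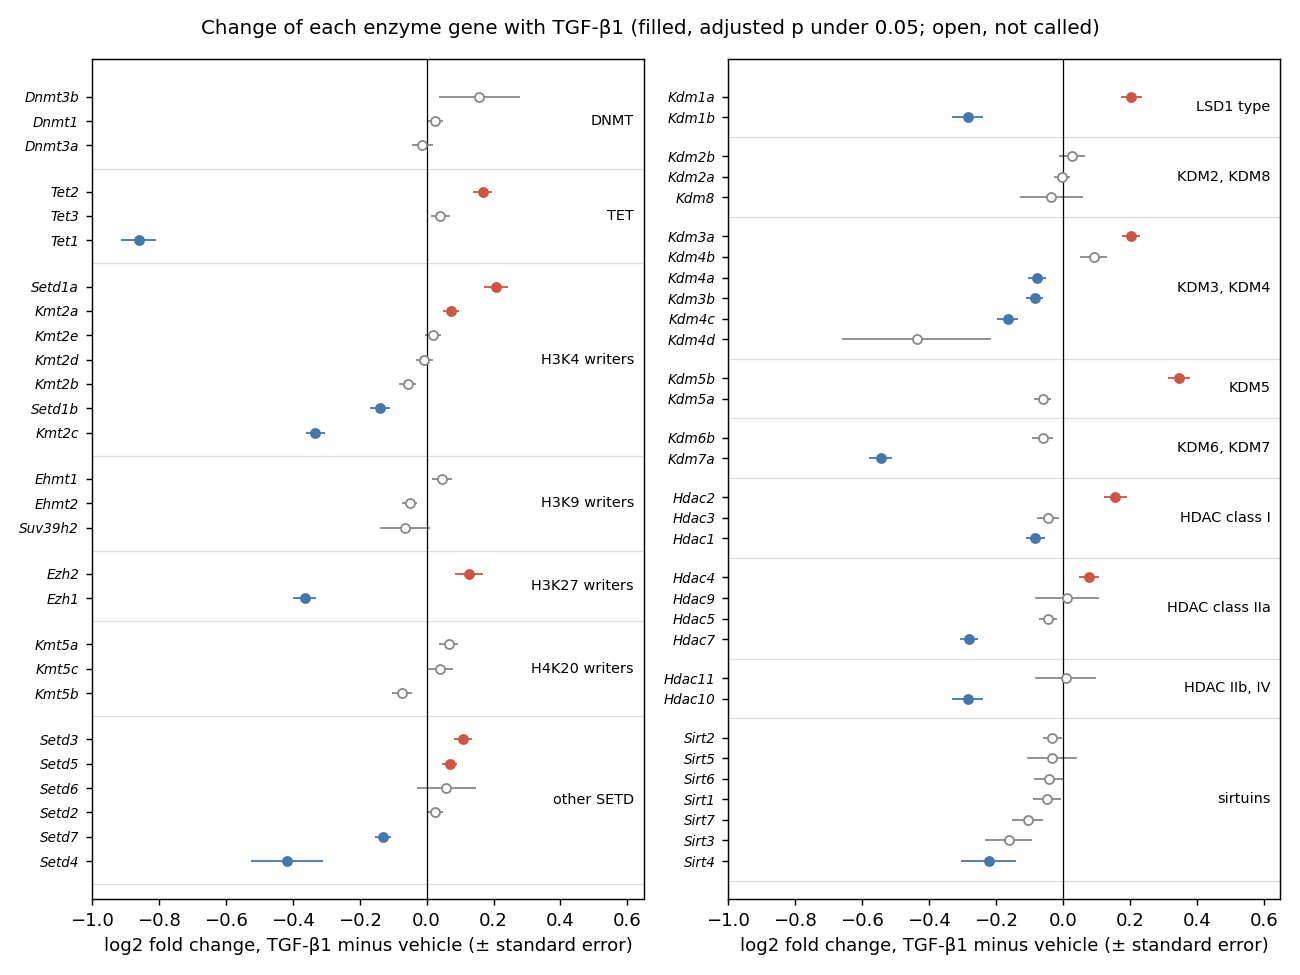
Log2 fold change of each of the 58 enzyme genes tested (TGF-β1 minus vehicle, horizontal axis), with bars for ± 1 standard error, grouped by enzyme class. Filled points are the 11 members called higher (red) and 15 called lower (blue), open points are the 32 not called, and Tet1 at -0.86 and Kdm7a at -0.54 lie farthest from 0.

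**Figure D2:**
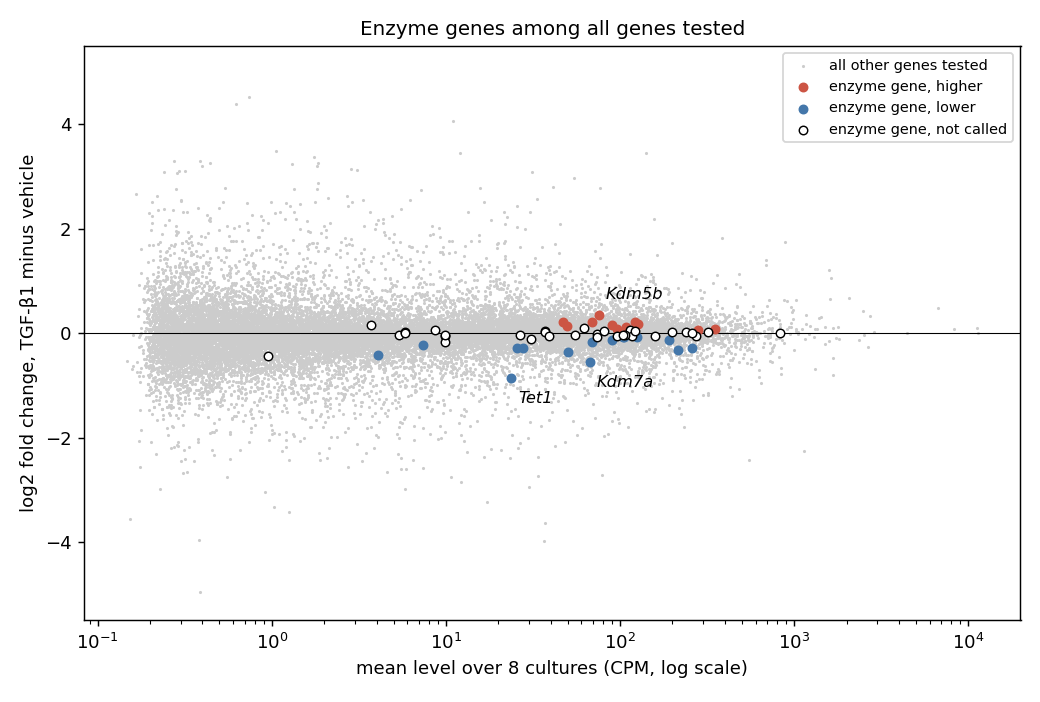
Log2 fold change (TGF-β1 minus vehicle) against the mean level over the 8 cultures (CPM, log axis) for all genes tested (grey) and the enzyme genes (coloured if called, open if not). The enzyme genes span mean levels of 0.951 to 825 CPM and lie close to 0 within the cloud of all genes.

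The largest change among the enzymes was in the TET family, whose members oxidise 5-methylcytosine to 5-hydroxymethylcytosine. Tet1 (ENSMUSG00000047146, GRCm38, chromosome 10, 62804570 to 62908996, minus strand) stood at 31.5, 31.9, 28.7 and 30.03 CPM in vehicle cultures 1 to 4 and at 17.9, 15.2, 17.3 and 16.8 CPM in TGF-β1 cultures 5 to 8. The groups lay well apart, with the highest treated culture far under the lowest control. The mean fell from 30.5 ± 1.47 to 16.8 ± 1.17 CPM (SD, n = 4), a log2 fold change of -0.86 ± 0.05 (SE) or a decrease of 44.9%, with an adjusted p of 1.75e-18 in edgeR's quasi-likelihood test. Tet2, the family member without a DNA-binding CXXC domain of its own, moved the other way. Its levels were 125, 121, 117 and 113 CPM with vehicle and 133, 134, 135 and 134 CPM with TGF-β1, with no overlap between the groups. Tet2 rose by 0.17 ± 0.03 on the log2 scale (edgeR, adjusted p = 2.93e-06). Tet3, which like Tet1 has a CXXC domain, read 126, 124, 118 and 115 CPM with vehicle and 123.4, 122.7, 124.3 and 127.0 CPM with TGF-β1. These ranges overlapped, and the log2 difference for Tet3 was 0.04 (95% interval -0.01 to 0.10, edgeR adjusted p = 0.257).

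The bases just upstream of the RefSeq start of Tet1 are shown because Tet1 had the largest change among the enzymes. The RefSeq start lies inside the longer gene model of GENCODE M21. The stretch runs 5′ to 3′ on the minus strand of GRCm38.p6 at chr10:62887325-62887412, ends at the base before the start, covers no annotated exon and holds 6 CpG dinucleotides in 88 bases. It is written in lower case throughout because none of the motifs searched, which are spelled out with the motif counts, was found in it.
Tet1: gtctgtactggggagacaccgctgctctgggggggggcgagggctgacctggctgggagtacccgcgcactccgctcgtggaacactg

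No DNA methyltransferase was called. Dnmt1, the maintenance enzyme that copies methylation at replication, had 234, 232, 234 and 245 CPM with vehicle and 237, 238, 240 and 247 CPM with TGF-β1. The groups overlapped, and the log2 difference was 0.03 (95% interval -0.02 to 0.07, edgeR adjusted p = 0.428). Dnmt3a, a de novo enzyme, had 75.2, 75.5, 74.0 and 70.4 CPM with vehicle and 76.8, 71.7, 72.0 and 72.1 CPM with TGF-β1. Its difference was -0.01 (interval -0.07 to 0.05, edgeR adjusted p = 0.796). Dnmt3b, the other de novo enzyme, was low, at 3.65, 3.14, 3.05 and 4.20 CPM with vehicle and 4.15, 4.60, 3.64 and 3.28 CPM with TGF-β1. Its groups overlapped too, and its interval was the widest of these genes, from -0.08 to 0.40 around 0.16 (edgeR adjusted p = 0.326). With 1 culture left out the difference was between 0.07 (without TGF-β1 culture 6) and 0.25 (without vehicle culture 4). In addition, 9.81% of the 50-base words of Dnmt3b transcripts also occur in another gene. Dnmt3c shares the most, so reads of Dnmt3b may be split or shared.

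The alternative catalytic subunits of Polycomb repressive complex 2 (PRC2), which methylates H3K27, changed in opposite directions. Ezh1 (ENSMUSG00000006920, chromosome 11, 101191115 to 101226463, minus strand), the subunit that prevails in resting cells, had 57.6, 55.2, 57.0 and 57.4 CPM with vehicle and 44.9, 44.0, 44.4 and 43.2 CPM with TGF-β1. The groups were far apart, and Ezh1 fell by 0.36 ± 0.03 on the log2 scale, or 22.3% (edgeR, adjusted p = 1.93e-12). Ezh2 (chromosome 6, 47530139 to 47595341, minus strand), the subunit that is abundant in dividing cells, had 46.7, 44.7, 50.7 and 46.9 CPM with vehicle and 48.6, 50.7, 50.5 and 56.5 CPM with TGF-β1. Here vehicle culture 3 overlapped the TGF-β1 range. Ezh2 was higher by 0.13 ± 0.04 (edgeR, adjusted p = 0.0136), and the call was lost without vehicle culture 2 (log2 difference 0.10) or without TGF-β1 culture 8 (0.09), where the adjusted p reached 0.0845. Beside these values, 14 of 20 proliferation genes were called higher (33.8% of all genes at 10 CPM or more were) and 1, Mcm6, lower, and their summed level was 2412 to 2596 CPM with vehicle and 2695 to 2734 CPM with TGF-β1. The part of proliferation in the Ezh1 and Ezh2 values was not tested.

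The promoter stretches of this pair are shown because the paralogs moved apart. The 250 bases upstream of the RefSeq start of Ezh1 (chr11:101226464-101226713, minus strand, GRCm38.p6) hold 14 CpG dinucleotides and none of the motifs searched. For Ezh2, a 30-base window at the start (chr6:47595009-47595038, minus strand) holds letters that match a binding motif of E2F, the factors that drive S-phase genes, printed in capitals.
Ezh1: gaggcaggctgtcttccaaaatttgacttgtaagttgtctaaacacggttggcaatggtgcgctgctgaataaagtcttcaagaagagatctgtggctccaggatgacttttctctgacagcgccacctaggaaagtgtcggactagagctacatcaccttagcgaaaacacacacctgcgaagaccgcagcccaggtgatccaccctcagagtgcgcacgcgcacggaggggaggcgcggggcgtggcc
Ezh2: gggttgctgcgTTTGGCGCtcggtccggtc

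Among the 7 members of the Kmt2 and Setd1 families, which include the COMPASS-type writers of H3K4 methylation, 2 rose, 2 fell and 3 were not called. All genes tested were called at 41.3%, and those at 10 CPM or more at 60.9%. Kmt2c (MLL3), which monomethylates H3K4 at enhancers, had 243, 257, 232 and 229 CPM with vehicle and 195, 186, 193 and 189 CPM with TGF-β1. The groups did not overlap, and Kmt2c fell by 0.33 ± 0.03 on the log2 scale (edgeR, adjusted p = 1.89e-12). Its close relative Kmt2d (MLL4), with the highest CPM of all the enzyme genes at 827 ± 40.4 CPM with vehicle and 823 ± 11.5 CPM with TGF-β1, differed by -0.01 (95% interval -0.06 to 0.04, edgeR adjusted p = 0.86). The paralogs Setd1a and Setd1b, catalytic subunits of the complexes responsible for much promoter H3K4 trimethylation, were called in opposite directions. Setd1a was higher by 0.21 ± 0.04 (43.6 ± 1.49 to 50.3 ± 0.489 CPM, edgeR adjusted p = 4.02e-06), but 51.2% of its 50-base words also occur in the overlapping gene model Gm49388 or elsewhere, so that its count is uncertain. Setd1b fell by 0.14 ± 0.03 (94.0 ± 3.05 to 85.4 ± 1.91 CPM, edgeR adjusted p = 0.000111). Kmt2a (MLL1) rose by 0.07 ± 0.02, a call that did not hold without vehicle culture 4 or without TGF-β1 culture 7, where the adjusted p reached 0.0961. Kmt2b and Kmt2e were not called, with log2 differences of -0.06 and 0.02, and Kmt2b passed in 3 of the 15 alternatives.

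None of the 3 members that write H3K9 methylation or the 3 that write H4K20 methylation was called, beside 41.3% of all genes tested. However, Kmt5a passed in 7, Kmt5b in 6 and Ehmt2 in 2 of the 15 alternative settings. Ehmt1 and Ehmt2 (GLP and G9a), which dimethylate H3K9, had log2 differences of 0.05 and -0.05, and the Ehmt2 groups did not overlap although its adjusted p was 0.0766 in edgeR's test. Suv39h2, a trimethylating enzyme, had a mean of 10.03 CPM with vehicle and differed by -0.06 (95% interval -0.21 to 0.08). Kmt5a, the enzyme for H4K20 monomethylation, and Kmt5b and Kmt5c, for the higher states, gave differences of 0.07, -0.07 and 0.04, of which the first pair lay close to the threshold (edgeR adjusted p = 0.0502 and 0.0504).

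The 6 remaining Setd genes act on varied substrates. Setd4, a low-level SET-domain gene, read 4.71, 5.04, 4.36 and 4.42 CPM with vehicle and 3.38, 3.88, 3.27 and 3.34 CPM with TGF-β1. The groups did not overlap, and Setd4 fell by 0.42 ± 0.11 on the log2 scale (edgeR, adjusted p = 0.00131), the third-largest change among the called enzymes with the widest standard error of them. Setd7, which monomethylates H3K4 and several other proteins, fell by 0.13 ± 0.02 (199 ± 3.23 to 182 ± 2.74 CPM). Setd3, known as an actin histidine methyltransferase, rose by 0.11 ± 0.03 (104 ± 2.98 to 112 ± 2.31 CPM), and 16.4% of its 50-base words occur in other genes. Setd5 rose by 0.07 ± 0.02, and its call was lost without TGF-β1 culture 7 and with a looser count filter, where the adjusted p reached 0.06. Setd2, the H3K36 trimethylating enzyme, and Setd6 were not called (log2 differences 0.03 and 0.06).

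The demethylases had 3 members higher, 5 lower and 7 not called. Of all genes tested, 41.3% were called, and 60.9% of those at 10 CPM or more. Kdm7a (ENSMUSG00000042599, chromosome 6, 39136623 to 39206789, minus strand), a Jumonji enzyme that removes dimethylation from H3K9 and H3K27, had 82.5, 83.5, 78.4 and 73.7 CPM with vehicle. With TGF-β1 it had 55.4, 56.2, 54.3 and 52.3 CPM. The lowest vehicle culture stood well above the highest TGF-β1 culture. Kdm7a fell from 79.5 ± 4.49 to 54.6 ± 1.68 CPM, by 0.54 ± 0.04 on the log2 scale or 31.4% (edgeR, adjusted p = 4.51e-17). Kdm6b, which removes H3K27 trimethylation, was not called (98.0 ± 2.83 and 94.0 ± 4.77 CPM, log2 difference -0.06), but passed in 1 of the 15 alternatives, without TGF-β1 culture 5 (adjusted p = 0.019 with edgeR).

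The promoter stretch of Kdm7a is shown as that of the only other gene past 0.5 on the log2 scale. Within the 250 bases upstream of its RefSeq start, the printed 234 bases (chr6:39206790-39207023, minus strand, GRCm38.p6) hold 52 CpG dinucleotides at 82.1% G and C, beside 6 CpG dinucleotides in the shorter Tet1 stretch, and no match to the motifs searched.
Kdm7a: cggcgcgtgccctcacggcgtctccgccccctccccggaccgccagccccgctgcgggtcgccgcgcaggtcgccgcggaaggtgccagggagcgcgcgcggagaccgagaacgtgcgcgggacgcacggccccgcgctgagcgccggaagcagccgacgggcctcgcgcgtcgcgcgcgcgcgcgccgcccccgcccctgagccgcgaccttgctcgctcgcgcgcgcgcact

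The demethylases of H3K4 were split. Kdm5b, which acts on the trimethylated and dimethylated states, had 69.3, 69.0, 63.9 and 62.7 CPM with vehicle and 82.4, 83.6, 86.7 and 84.1 CPM with TGF-β1. All TGF-β1 cultures were higher. Kdm5b rose by 0.35 ± 0.03 on the log2 scale or 27.2% (edgeR, adjusted p = 2.54e-12), the largest rise among the called enzymes. Its paralog Kdm5a was not called and leaned the other way, with 120 ± 1.51 and 115 ± 1.28 CPM, groups that did not overlap and an adjusted p of 0.0577 in edgeR's test, and it passed in 3 of the 15 alternatives. The LSD-type enzymes, which act on the monomethylated and dimethylated states, moved apart. Kdm1a (LSD1), the catalytic subunit of CoREST complexes, rose by 0.20 ± 0.03 (64.1 ± 1.14 to 73.9 ± 1.41 CPM, edgeR adjusted p = 2.65e-07). Kdm1b (LSD2) had 30.1, 32.0, 29.2 and 29.7 CPM with vehicle and 24.7, 26.2, 23.9 and 24.5 CPM with TGF-β1. These groups did not overlap, and Kdm1b fell by 0.28 ± 0.05 (edgeR, adjusted p = 1.06e-06). Of the exon bases of Kdm1b, 9.19% overlap Dek on the opposite strand, which matters only if strand was not used in counting.

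Among the demethylases of H3K9 and H3K36, Kdm3a, which acts on mono- and dimethylated H3K9, had 116, 111, 113 and 114 CPM with vehicle and 134, 130, 131 and 128 CPM with TGF-β1. The groups did not overlap, and Kdm3a rose by 0.20 ± 0.03 (edgeR, adjusted p = 1.46e-08). Its paralog Kdm3b fell by 0.08 ± 0.03 (128 ± 1.33 to 121 ± 2.14 CPM, edgeR adjusted p = 0.00724), although 24.6% of its exon bases overlap a gene model on the opposite strand, which matters only if strand was not used in counting. Of the KDM4 enzymes, which remove H3K9 and H3K36 trimethylation, Kdm4c fell by 0.16 ± 0.03 (72.6 ± 2.34 to 64.8 ± 1.24 CPM) and Kdm4a by 0.08 ± 0.03. The Kdm4a call was lost with DESeq2 and without vehicle culture 4, TGF-β1 culture 7 or TGF-β1 culture 8, where the adjusted p rose to 0.113. Kdm4b and Kdm4d were not called (log2 differences 0.09 and -0.44), and Kdm4b passed in 4 of the 15 alternatives. Kdm4d had only 28 to 63 counts per culture, and its 95% interval was -0.87 to -0.0010. The KDM2 and KDM8 enzymes Kdm2a, Kdm2b and Kdm8 were not called, with differences of -0.0029, 0.03 and -0.03.

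**Figure D3:**
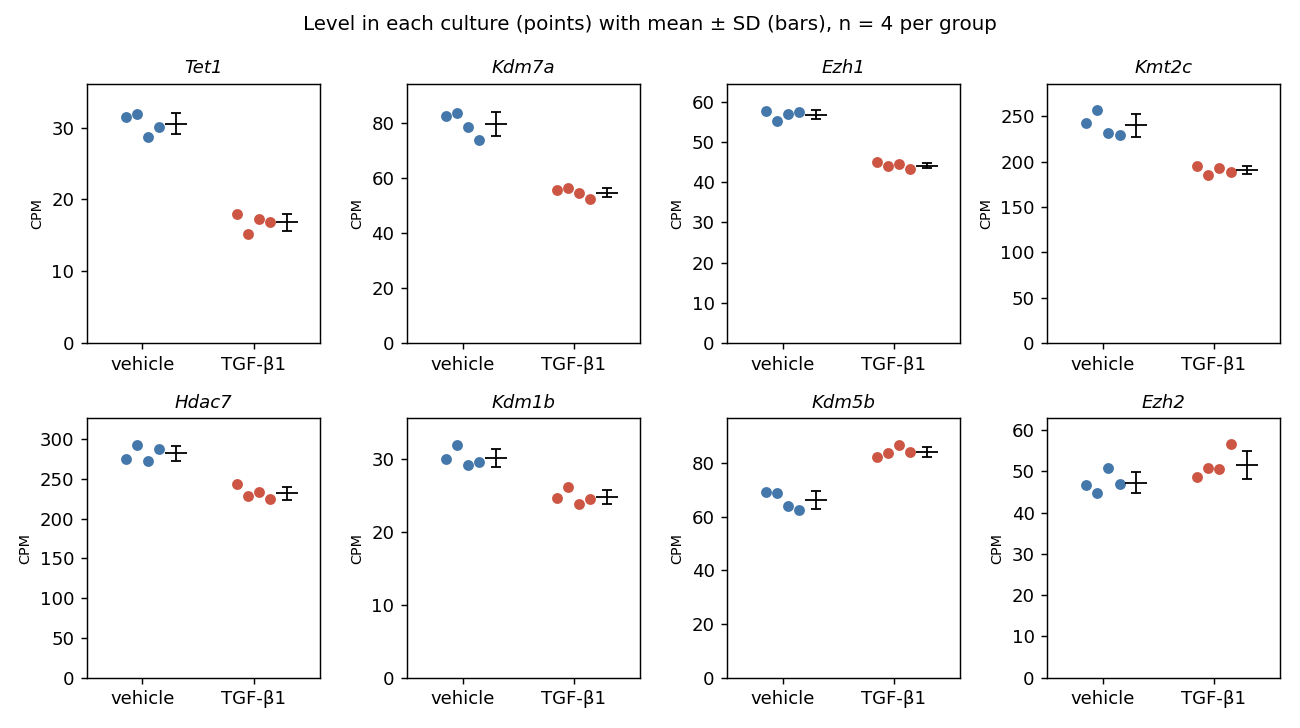
Level (CPM, vertical axes from 0) of 8 enzyme genes in each of the 4 vehicle and 4 TGF-β1 cultures (points), with bars for the mean ± SD. The groups are apart for the genes shown except Ezh2, where vehicle culture 3 at 50.7 CPM lies within the TGF-β1 range.

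Of the 9 zinc-dependent deacetylases, 2 rose, 3 fell and 4 were not called. Across all genes tested 41.3% were called, and 60.9% of those at 10 CPM or more. Hdac7, a class IIa enzyme that represses MEF2 targets and is prominent in vascular cells, had 275, 293, 273 and 288 CPM with vehicle and 243, 228, 233 and 224 CPM with TGF-β1. The groups did not overlap, and Hdac7 fell by 0.28 ± 0.03 on the log2 scale or 17.7% (edgeR, adjusted p = 3.63e-12). Its class IIa relatives moved less. Hdac4 was higher by 0.08 ± 0.03 with overlapping groups (94.0 ± 2.47 and 99.1 ± 4.30 CPM), held its call in 7 of 15 alternative settings and shares 22.4% of its exon bases with a gene model on the opposite strand. Hdac5 and Hdac9 were not called, with differences of -0.05 and 0.01.

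Among the class I enzymes, Hdac2, which with Hdac1 forms the catalytic core of the SIN3, NuRD and CoREST corepressors, read 81.9, 83.3, 85.7 and 89.8 CPM with vehicle and 88.3, 99.8, 92.8 and 98.6 CPM with TGF-β1. Vehicle culture 4 was above TGF-β1 culture 5, so the groups overlapped. Hdac2 rose by 0.16 ± 0.03 (edgeR, adjusted p = 0.000296). Hdac1 was lower by 0.08 ± 0.03 (105.9 to 110.3 CPM with vehicle and 99.41 to 105.8 CPM with TGF-β1, edgeR adjusted p = 0.0139). This call was lost without vehicle culture 1 or TGF-β1 culture 8. Of the 50-base words of Hdac1, 35.3% are shared with other genes, and Gm10093 shares the most. Hdac3, the remaining class I enzyme among the members, was not called (55.6 ± 1.958 and 53.9 ± 1.144 CPM). Hdac10, a class IIb enzyme that acts on polyamines, had 28.3, 28.6, 27.3 and 28.9 CPM with vehicle and 24.3, 22.9, 24.0 and 21.8 CPM with TGF-β1. Its groups did not overlap, and it fell by 0.28 ± 0.05 (edgeR, adjusted p = 1.78e-06). Hdac11, the class IV enzyme, was not called at 5.81 ± 0.391 and 5.84 ± 0.387 CPM.

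The sirtuins, deacylases that consume NAD+, had 1 of 7 members called, beside 41.3% of all genes tested. All 7 log2 differences were negative, between -0.22 and -0.03, although 6 of the 7 were not called. The median over all genes tested was also negative, at -0.01. The difference of Sirt5 turned positive in some alternative settings (up to 0.02). Sirt4, a mitochondrial enzyme, had 7.46, 8.25, 7.34 and 8.71 CPM with vehicle and 6.94, 6.86, 6.90 and 6.53 CPM with TGF-β1. The groups did not overlap, and Sirt4 fell by 0.22 ± 0.08 (edgeR, adjusted p = 0.0242). The call was lost without vehicle culture 2 (-0.20), vehicle culture 4 (-0.18) or TGF-β1 culture 8 (-0.19), where the adjusted p reached 0.109. The mitochondrial Sirt3 and nucleolar Sirt7 had adjusted p-values of 0.0614 and 0.0629 in edgeR's test with differences of -0.16 and -0.10, and passed in 2 and 6 of the 15 alternative settings. Sirt1, the nuclear enzyme studied most, differed by -0.05 (39.7 ± 2.38 and 38.4 ± 1.97 CPM, 95% interval -0.13 to 0.04). Sirt2, a mainly cytoplasmic tubulin deacetylase, and the nuclear Sirt6 differed by -0.03 and -0.04.

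Several paralogs with the same or a related activity moved apart, so their count ratios within each library, which need no scaling between libraries, were computed for 7 pairs. The pairs were chosen after their values were seen, and the ratios are a description with no test. Ezh1 to Ezh2 was 1.23, 1.24, 1.12 and 1.22 with vehicle and 0.924, 0.867, 0.878 and 0.764 with TGF-β1, so that counts of Ezh1 exceeded those of Ezh2 in every vehicle culture and in no TGF-β1 culture. Tet1 to Tet2 went from 0.257 ± 0.010 to 0.126 ± 0.009. Kdm5b to Kdm5a went from 0.553 ± 0.023 to 0.734 ± 0.023, and Kdm1a to Kdm1b from 2.12 ± 0.105 to 2.98 ± 0.086. Each of these last 3 pairs removes the same histone or DNA mark. Kmt2c to Kmt2d went from 0.290 ± 0.006 to 0.232 ± 0.004, Hdac2 to Hdac1 from 0.786 ± 0.036 to 0.926 ± 0.053, and Setd1a to Setd1b from 0.464 ± 0.023 to 0.589 ± 0.009 (SD, n = 4 for each). In none of the 7 pairs did the vehicle and TGF-β1 ratios overlap, which choosing the pairs after their values were seen made likely. The share of other gene pairs without overlap was not computed. Counts are not corrected for gene length, so a ratio compares treatments and not the levels of the paralogs, and the sequence that Setd1a and Hdac1 share with other genes also enters their ratios.

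**Figure D4:**
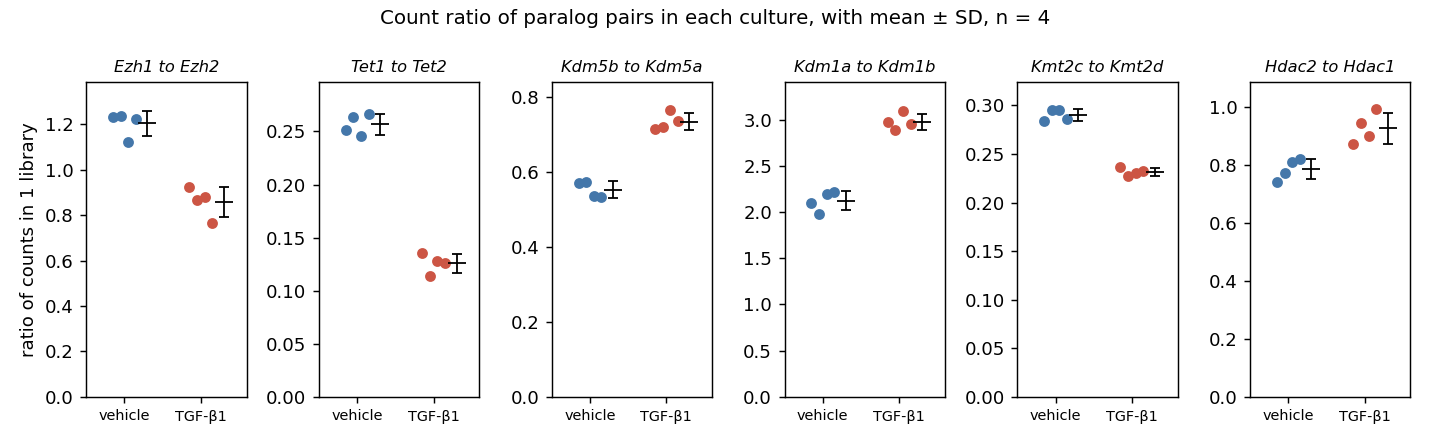
Ratio of counts of paralogs in each library (points) for 6 pairs, with bars for the mean ± SD of the 4 vehicle and 4 TGF-β1 cultures; the vertical axes start at 0. The ratio of Ezh1 to Ezh2 lies above 1 in all vehicle cultures and below 1 in all TGF-β1 cultures. Counts are not corrected for gene length, so a ratio of 1 does not mark equal levels.

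Levels of different genes were compared per kilobase of merged exons, as a description. On this scale Ehmt2 was highest in vehicle cultures at 50.3 ± 0.243 CPM per kb, followed by Hdac7 at 41.8 ± 1.42 and Kmt2d at 41.5 ± 2.02. The last pair did not differ beyond their spread. Dnmt1 followed at 32.0 ± 0.818 and Hdac1 at 31.5 ± 0.569, again within their spread. With TGF-β1 the values were 34.4 CPM per kb for Hdac7 and 41.3 for Kmt2d. Among the DNA methyltransferases with counts enough to test, Dnmt3a was at 4.43 ± 0.140 and Dnmt3b at 0.687 ± 0.104 CPM per kb, far under Dnmt1. Tet2 and Tet3 were alike at 7.05 ± 0.325 and 7.24 ± 0.290 CPM per kb, and Tet1 lower at 1.98 ± 0.095. Ezh1 and Ezh2 were near each other with vehicle, at 7.63 ± 0.148 and 7.08 ± 0.377 CPM per kb, and stood at 5.93 and 7.73 with TGF-β1.

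The genes that work with these enzymes were taken from 8 lists of partner subunits and related enzymes, and 72 of the 117 tested were called (61.5%), 40 higher and 32 lower, beside 41.3% of all genes tested and 60.9% of those at 10 CPM or more. Most but not all of the partner genes were at such levels. Among the 9 partner subunits of PRC2, 3 rose and 2 fell. Epop, a partner that links PRC2 to elongin, rose by 0.61 ± 0.13 on the log2 scale (2.89 ± 0.499 to 4.41 ± 0.774 CPM), while the Polycomb-like proteins Phf19 and Phf1 fell by 0.35 ± 0.05 and 0.24 ± 0.04. Their relative Mtf2, named here after its value was seen, rose by 0.14 ± 0.04. The 18 subunits of PRC1, the complex that ubiquitinates H2A, had 5 higher and 7 lower. Cbx7, a reader of H3K27 trimethylation, fell by 0.41 ± 0.05, whereas Yaf2 and Pcgf3, subunits of variant PRC1, rose by 0.33 ± 0.04 and 0.25 ± 0.03.

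The COMPASS partners, which hold the H3K4 writers, had 3 members higher and 4 lower of 11. Paxip1 (PTIP), a partner of Kmt2c and Kmt2d, fell by 0.25 ± 0.03, and Wdr82, a partner of Setd1a and Setd1b, by 0.20 ± 0.03, whereas Dpy30, a core subunit, rose by 0.15 ± 0.05. The corepressor subunits that hold the class I deacetylases and LSD1 had 12 higher and 8 lower of 29. Rcor2, a CoREST scaffold, rose by 0.43 ± 0.08, and Sap30 of the SIN3 complex by 0.27 ± 0.09. Their summed level spanned 3779 to 3844 CPM with vehicle and 3919 to 3957 CPM with TGF-β1.

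The other lysine methyltransferases had 7 higher and 3 lower of 18. Prdm9, best known from meiosis, fell by 0.32 ± 0.08, Smyd5 rose by 0.31 ± 0.05 and Prdm16 fell by 0.28 ± 0.04. Of 8 arginine methyltransferases, Prmt1, the main asymmetric enzyme, rose by 0.27 ± 0.03, Prmt5 by 0.09 ± 0.03, and the others were not called. The 11 acetyltransferases, which oppose the deacetylases, had 3 higher and 4 lower, with Kat6b up by 0.27 ± 0.03, Kat2a (GCN5) down by 0.23 ± 0.03 and Hat1, which acetylates new histone H4, up by 0.22 ± 0.03. The 13 genes that read DNA methylation or act with Dnmt and TET enzymes had 5 higher and 4 lower. Gadd45a, a stress gene linked to active demethylation, rose by 1.26 ± 0.06 (9.02 ± 0.252 to 21.6 ± 2.03 CPM) and Zbtb38, a methyl-CpG-binding zinc finger protein, by 0.86 ± 0.03 (131 ± 3.46 to 238 ± 5.33 CPM). Idh2, a mitochondrial source of 2-oxoglutarate, fell by 0.42 ± 0.03. The adjusted p-values of the partner genes named here ranged from 2.63e-29 for Zbtb38 to 0.0296 for Prmt5 (edgeR's quasi-likelihood test, Benjamini-Hochberg adjustment over all genes tested).

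Promoters from 250 bases before to 50 after a start were given by RefSeq for 48 of the 59 enzyme genes, as 71 of 32851 mouse promoters (GRCm38.p6). They were searched on both strands for exact letters, and the matches are a description of these windows only. The E2F motifs TTTCCCGC, TTTGGCGC and TTTCGCGC occurred in 4 of the 71, those of Dnmt1, Ezh2, Kmt5c and Sirt4, beside 1.845% of all promoters. Of these genes Ezh2 was called higher, Sirt4 lower, and Dnmt1 and Kmt5c were not called. The 30-base windows are shown with the match in capitals, 5′ to 3′ on the gene's strand, at chr9:20952574-20952603 and chr9:20952824-20952853 (minus strand) for Dnmt1, chr7:4740011-4740040 (plus) for Kmt5c and chr5:115484288-115484317 (minus) for Sirt4.
Dnmt1, after the start: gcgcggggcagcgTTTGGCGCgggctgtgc
Dnmt1, before the start: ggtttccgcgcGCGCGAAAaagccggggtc
Kmt5c: ggccagaagagGCGGGAAAaagagagcaat
Sirt4: ccggctgaaggTTTCCCGCtgagcattctt

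Motifs of factors that act with TGF-β signals were searched in the same way. The palindromic SMAD box GTCTAGAC occurred in 1 enzyme promoter, that of Sirt6, beside 0.213% of all promoters. The CAGA box CAGACA occurred in 9 promoters of 7 members (Dnmt3l, Hdac7, Hdac9, Hdac11, Kdm2b, Kdm4c and Sirt5), beside 21.0% of all. The AP-1 motifs TGACTCA and TGAGTCA occurred in 4 promoters, of Hdac7, Kdm3a and Kdm4a, beside 5.20%, and the CRE TGACGTCA in that of Suv39h2, beside 1.79%. Of the members past 0.25 on the log2 scale with a promoter in the table, only Hdac7 held any of the motifs searched.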

How the data were processed

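RNA from 8 primary cultures of mouse brain pericytes was sequenced from a stranded total RNA library. For alignment to mm10 the authors used STAR 2.7.5c (2-pass mode), after which PCR duplicates were taken out in samtools 1.15 and reads were assigned to genes by featureCounts 2.0.3. They deposited raw counts for 54532 Ensembl identifiers, 1 file per culture, without normalization. The annotation release, the strand setting and the treatment of reads that match several genes are not given in the sources used here. Between 68.5% and 70.2% of counts from 1 to 20 were even, so independent fragments may be fewer than counts, which would follow if each mate was counted. Every row named a gene, and 54495 identifiers had a symbol and position in GENCODE M21 (GRCm38, the assembly that mm10 names).

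All genes were fitted with edgeR 4.0.16 in R 4.3.3 (filterByExpr, TMM, robust dispersion, quasi-likelihood test, Benjamini-Hochberg adjustment over 22544 genes, threshold 0.05). The standard error was the log2 fold change divided by the square root of F, and the 95% interval assumed a normal error. Uniqueness was measured as the share of 50-base transcript words found in another gene. The code was tested on simulated data. Alternatives were DESeq2 1.42.0, DESeq2 size factors, library totals only, upper-quartile factors, looser and stricter filters (1 count in any culture, or 10 counts in every one), counts divided by 2 and rounded up, and each culture left out.

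The members and all lists were chosen with earlier results of these data known. Values in every culture are given for called members with a log2 change of at least 0.5 in size, the called member with the largest change in each enzyme class, and the Dnmt1, Dnmt3a, Dnmt3b, Tet and Ezh genes. Up to 3 called genes with the largest change are named per partner list, and some genes that fall under this rule are left out. Other members are given by mean, difference or count. Other experiments of the study (qPCR, protein, human single cells) were not used here.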

Additional observations from a re-analysis of the deposited data

Results flagged for a closer look

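Each group of 4 values of the 18 enzyme genes described culture by culture, and of the library totals, was examined for a culture far from the others, taken as a gap to its nearest neighbour above Dixon's 95% critical value as a share of the group's range. Of 38 groups tested, 1 held such a culture, where chance alone gives about 1 in 20, or 1.9. For Dnmt3a, TGF-β1 culture 5 stood at 76.83 CPM and the nearest culture at 72.14 CPM, a gap of 0.914 of the range.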

How the results depend on the processing

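Among 15 alternatives, the enzyme genes called higher numbered 8 to 13 and those called lower 12 to 21, and partner genes called ranged from 35 to 42 higher and from 29 to 33 lower. Of the 26 calls, 19 (7 higher, 12 lower) held in every alternative, and 7 (Ezh2, Hdac1, Hdac4, Kdm4a, Kmt2a, Setd5 and Sirt4) were lost in at least 1. The smallest log2 change among the 19 was 0.08398 in size, in Kdm3b. DESeq2 gave 10 higher and 14 lower. The median log2 fold change of the enzyme genes ranged from -0.048 to -0.0069 with 1 culture left out, the latter without vehicle culture 1, and the cause was not tested. The difference of Dnmt3a, not called in any setting, changed sign to 0.0022 without vehicle culture 1, 0.0020 without vehicle culture 2 and 0.0023 without TGF-β1 culture 8, within a leave-one-out range of -0.03973 to 0.0023. Of 270 values of named members under the alternatives, 262 kept their direction and side of the threshold, 5 lost the call (Ezh2 and Sirt4 with a culture left out) and 3 changed sign. Alternative scalings, filters and left-out cultures moved the median of all genes by at most 0.0159.

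No paired analysis was made. The labels number the vehicle cultures 1 to 4 and the TGF-β1 cultures 5 to 8, so the groups share no replicate number. Which cultures share an isolate is not known from the labels, and a pairing by order was not fitted.

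Among the members tested, depth was highest for Kmt2d and lowest for Kdm4d, which had 28 to 63 counts per culture, and differences in Dnmt3b, Hdac9, Hdac11, Kdm4d, Kdm8, Setd4 and Setd6 were measured with the least precision. RNA levels were measured, not protein, enzyme activity, or the marks themselves.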
